A study of Schizosaccharomyces pombe with 4 samples.

Results

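Nitrogen supply genes of fission yeast (Schizosaccharomyces pombe) were described in RNA from cells labelled as lacking the bZIP factor gene pcr1, with an Atf1 plasmid or with an empty one. They were the rows whose gene symbol is amt1, amt2, amt3, dur3, gaf1, dal51, isp6, isp7, car1 or phx1. Of these 10 symbols, 9 had a row among the 7092 genes of the authors' deposited table, and dur3 had none. The table's annotation instead holds urea transporters named dur3-1, dur3-2 and dur3-3, which are given with the urea genes below. By its labels, the comparison concerns over-expression of Atf1, a stress-response transcription factor, in the absence of Pcr1, its usual dimer partner; the values of atf1, pcr1 and ura4 go against those labels, as given below.

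The Atf1 group had 2 libraries labelled as homothallic (h90) cells marked ade6, leu1 and ura4, with pcr1 replaced by ura4+ and carrying pREP41-Atf1. The vector group had 2 libraries labelled with the same genotype and pREP41 alone. This plasmid drives its insert from the nmt1 promoter, which thiamine shuts off. Cells of both groups grew at 30 °C overnight in Edinburgh minimal medium without leucine and with 20 µM thiamine, then for 24 h without thiamine. The labels name no nitrogen starvation in either group. The sources used here do not state if both libraries of 1 label were grown as separate cultures.

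Each gene has 1 pooled FPKM value per group (fragments per kilobase of transcript, scaled to sequencing depth), so the spread among libraries and the depth are both unknown. A gene is said to rise or fall only where the q-value of the authors' deposited table is under 0.05. Differences are log2(FPKM + 1), Atf1 minus vector, which makes changes of low genes look smaller than they are. FPKM summed to 1321551 in the Atf1 group and 835070 in the vector group, and structural RNAs had a median difference of 3.36 over 69 RNAs; their part in any result here was not tested. The labels were not met by the genes they name: atf1 was at 54.4 FPKM (Atf1) and 60.9 FPKM (vector), pcr1 at 66.4 FPKM (Atf1) and 35.8 FPKM (vector), and ura4, listed at 0 in the Atf1 group, had 124.8 FPKM in the vector group. Directions given here therefore compare the 2 labels, and not known levels of Atf1, nor cells known to share the same genotype.

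Fission yeast takes up ammonium through membrane channels of the Amt family and builds it into glutamate and glutamine. When good nitrogen sources run short, cells turn to stored or external nitrogen: purines are degraded to urea, arginase splits arginine into ornithine and urea, and urease releases ammonia from urea. Signalling through the TOR kinases holds this response back, and the GATA-type factor Gaf1 acts below TOR on nitrogen-responsive genes.

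Of the 9 genes, the arginase gene car1 rose and no other passed the threshold. Over all 6219 genes tested (marked OK by the authors, with a mean over both groups of 1 FPKM or more), 1.95% were called, 1.82% higher and 0.129% lower. After that filter 8 of the 9 genes were left, since amt3 was below it, and 1 of these 8 was called higher and 0 lower by the authors' Cuffdiff comparison. At an unadjusted p under 0.05 in that table, 2 were higher and 0 lower, against 6.8% higher and 4.04% lower among all tested genes. A difference above 0 was found in 6 of the 8, against 44.6% of all tested genes. The median difference of the 8 was 0.61, against -0.11 over all tested genes. That median was -0.022 after the 2 groups were given equal FPKM totals, a step that moved the median of all tested genes to -0.73.

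**Figure D1:**
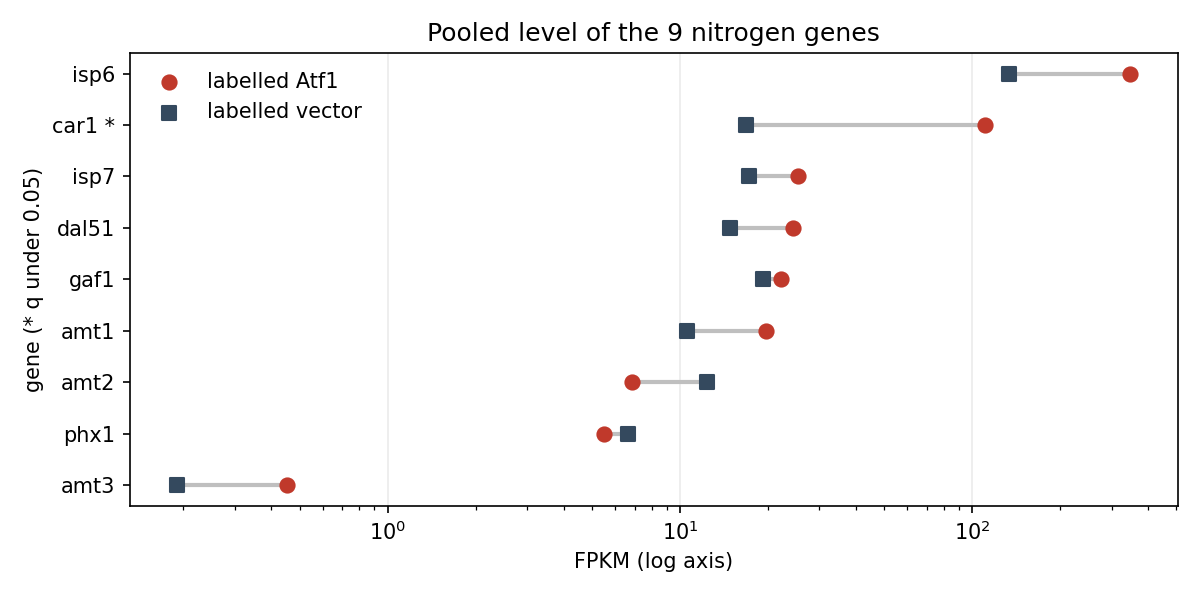
FPKM (log axis) of the 9 nitrogen genes with 1 pooled value per group: red circles for libraries labelled Atf1 and dark squares for those labelled vector, ordered by the Atf1 value, with an asterisk at q under 0.05. Of the 8 tested genes car1 has the widest gap, 110.5 FPKM (Atf1) against 16.9 FPKM (vector), and amt2 and phx1 are the genes with a lower value under the Atf1 label.

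The promoters below are shown for car1, the gene that rose, for dur3-1, a urea transporter gene that rose, and for isp7 and amt1, which were not called but hold matches to a GATA motif. Each is the 300 bases before the annotated transcript start, from the RefSeq genome and annotation of assembly ASM294v3. Capitals mark GATAAG, a core that GATA-type factors bind, read on either strand. The car1 window is chrII:325231-325530, the dur3-1 window chrII:2125361-2125660 and the isp7 window chrI:4183020-4183319, all on the minus strand. The amt1 window is chrIII:2068679-2068978 on the plus strand. The deposited locus of car1, which holds no other gene, runs to 325565, so the car1 window lies within it. Sequence beyond 325565 was not searched.
car1: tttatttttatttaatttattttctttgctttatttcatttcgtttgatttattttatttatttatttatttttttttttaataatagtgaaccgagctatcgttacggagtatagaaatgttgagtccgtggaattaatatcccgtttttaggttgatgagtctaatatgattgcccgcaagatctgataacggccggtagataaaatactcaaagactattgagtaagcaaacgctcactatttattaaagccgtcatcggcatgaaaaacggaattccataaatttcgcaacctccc
dur3-1: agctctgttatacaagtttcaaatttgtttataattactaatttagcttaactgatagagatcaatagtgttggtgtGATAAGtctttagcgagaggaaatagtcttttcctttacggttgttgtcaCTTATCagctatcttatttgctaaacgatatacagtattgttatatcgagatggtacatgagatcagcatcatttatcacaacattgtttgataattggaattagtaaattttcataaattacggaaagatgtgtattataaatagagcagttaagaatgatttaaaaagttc
isp7: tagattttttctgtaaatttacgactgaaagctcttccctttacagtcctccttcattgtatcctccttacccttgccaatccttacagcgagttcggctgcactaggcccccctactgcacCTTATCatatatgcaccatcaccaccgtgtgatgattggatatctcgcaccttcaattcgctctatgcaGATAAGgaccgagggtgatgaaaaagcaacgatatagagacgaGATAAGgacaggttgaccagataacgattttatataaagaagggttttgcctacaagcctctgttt
amt1: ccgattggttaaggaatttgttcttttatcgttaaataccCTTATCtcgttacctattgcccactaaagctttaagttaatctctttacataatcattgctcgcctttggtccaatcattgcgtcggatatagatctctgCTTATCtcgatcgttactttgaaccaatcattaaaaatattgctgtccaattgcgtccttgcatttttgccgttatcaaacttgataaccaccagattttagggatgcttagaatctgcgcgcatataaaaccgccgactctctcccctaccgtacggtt

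GATAAG was present in the windows of 3 of the 9 genes, isp7 with 3 matches and amt1 and amt3 with 2 each, and in 11.7% of 5137 promoter windows of protein-coding genes. TGACGT, the core of the element bound by Atf1 and related factors, was present in 1 of the 9, amt3, and in 6.05% of all windows. Only the amt3 window held both motifs, and their matches did not overlap there. The car1 window held neither, which says only that these letters are not within it. The dur3-1 window held 2 GATAAG matches, at -223 and -173 from the transcript start. RefSeq annotates no 5′ UTR for the other list genes that rose, isp4 and SPCC1223.09, so their windows were counted from the start codon. These windows held 0 matches of either motif. Both lie within the deposited locus of their gene, which holds no other gene, and sequence beyond those loci was not searched. The transcript start annotated for amt3 in RefSeq is its start codon, so its window is counted from there.

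The ammonium transporter genes differed in level and in direction, and none was called. The ammonium transporter gene amt1 (SPCPB1C11.01, chromosome III 2068977-2071707, ASM294v2) was at 19.6 FPKM in libraries labelled Atf1, against 10.6 FPKM in vector-labelled ones, a difference of 0.84 with q = 0.893 in the authors' deposited table. Another gene of the family, amt2 (SPAC664.14, in the locus I 1731083-1733316) was at 6.83 FPKM (Atf1) and 12.3 FPKM (vector), a difference of -0.77 with q = 0.997 there. These opposite differences left the summed FPKM of the 3 ammonium transporter genes at 26.9 under the Atf1 label, against 23.1 under the vector label. Of that sum, amt1 made up 72.9% and amt2 25.4% under the Atf1 label, against 45.8% for amt1 and 53.4% for amt2 under the vector label. Neither gene was called and the value of amt2 is uncertain, as given below, so these shares are descriptive only. With equal FPKM totals the difference was 0.217 for amt1 and -1.365 for amt2. No test of the shares could be made from pooled values.

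The third ammonium transporter gene, amt3 (SPAC2E1P3.02c, in the locus I 2921063-2927075), was at 0.45 FPKM (Atf1) and 0.19 FPKM (vector), the lowest level of the 9 genes in both groups. RNAs antisense to amt2 and amt3 are annotated, and both were at higher FPKM than the transporter gene itself in both groups. The antisense RNA of amt2 was at 44.1 FPKM (Atf1) and 32.9 FPKM (vector), which is 6.46 times the FPKM of amt2 under the Atf1 label and 2.67 times it under the vector label. The antisense RNA of amt3 was at 25.0 FPKM (Atf1) and 13.1 FPKM (vector). The library kit marks strand, but whether the authors counted by strand is not stated in the sources used here, so the values of amt2 and amt3 are uncertain. The coding sequences of amt1, amt2 and amt3 gave no match to each other or to another gene in a BLAST search.

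The transporter gene dal51 (SPCC417.10, in the locus III 1691219-1697592) is annotated in the allantoate permease family, and its annotated process is dipeptide transport. Dal5 of budding yeast carries allantoate and dipeptides. The dal51 gene was at 24.4 FPKM under the Atf1 label, against 14.9 FPKM under the vector label, a difference of 0.68 with q = 0.997 in the authors' deposited table. Its locus holds 2 genes. The dal51 gene lies 25825 bases from gaf1 on the same chromosome in ASM294v3.

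Neither regulator gene was called. The GATA-type factor gene gaf1 (SPCC1902.01, chromosome III 1665533-1669788) was at 22.1 FPKM under the Atf1 label, against 19.2 FPKM under the vector label, a difference of 0.19 that was -0.44 with equal FPKM totals. The homeobox factor gene phx1 (SPAC32A11.03c, chromosome I 2451793-2456514), known for survival in stationary phase, was at 5.51 FPKM (Atf1) and 6.63 FPKM (vector), a difference of -0.23. In the authors' deposited table both have q = 0.997. Each lies alone in its locus. RNA level does not show where Gaf1 is in the cell, by which TOR is known to control it.

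Of the isp genes, named for sexual differentiation, isp6 had a higher level than isp7 in both groups, and neither was called. The gene isp6 encodes a subtilisin-like serine protease that acts in the vacuole, where it takes part in autophagy. At 347 FPKM under the Atf1 label, against 133 FPKM under the vector label, isp6 (SPAC4A8.04, in the locus I 2538102-2546981) had the highest level of the 9 genes in both groups. The ratio was 2.60 and the difference 1.37, larger than that of 89.7% of tested genes, with p = 0.0412 and q = 0.616 in the authors' deposited table. Its locus holds 5 genes, of which the noncoding RNA SPNCRNA.834, annotated just before isp6, was at 4.99 FPKM (Atf1) and 3.65 FPKM (vector). The gene isp7 (SPAC25B8.13c, chromosome I 4179961-4183074) encodes a protein of the iron and ascorbate-dependent oxidoreductase family that is annotated as a regulator of arginine and proline uptake. It was at 25.4 FPKM (Atf1) and 17.2 FPKM (vector), a difference of 0.54 with q = 0.997 in that table, and of -0.095 with equal FPKM totals.

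Both the protein name and the gene ontology terms of the car1 row give arginase, which turns arginine into ornithine and urea. It is SPBP26C9.02c, alone in its locus at chromosome II 323944-325565. The symbol car1 is also an alias of bsu1 (SPAC17A2.01), a vitamin B6 transporter gene, which is a separate row and was at 100.6 FPKM under the Atf1 label, against 187 FPKM under the vector label, and was not called. The arginase gene rose to 110.5 FPKM in libraries labelled Atf1, against 16.9 FPKM in vector-labelled ones. The ratio was 6.55 and the difference 2.64, larger than that of 96.4% of tested genes, with q = 0.00809 in the authors' deposited table, whose smallest p (5e-05) this gene shares with 75 genes in all. In bulk RNA, fewer cells with an RNA and less of it per cell cannot be told apart. The difference of car1 lay between 2 and 2.75 under the other pseudocounts and scalings.

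**Figure D2:**
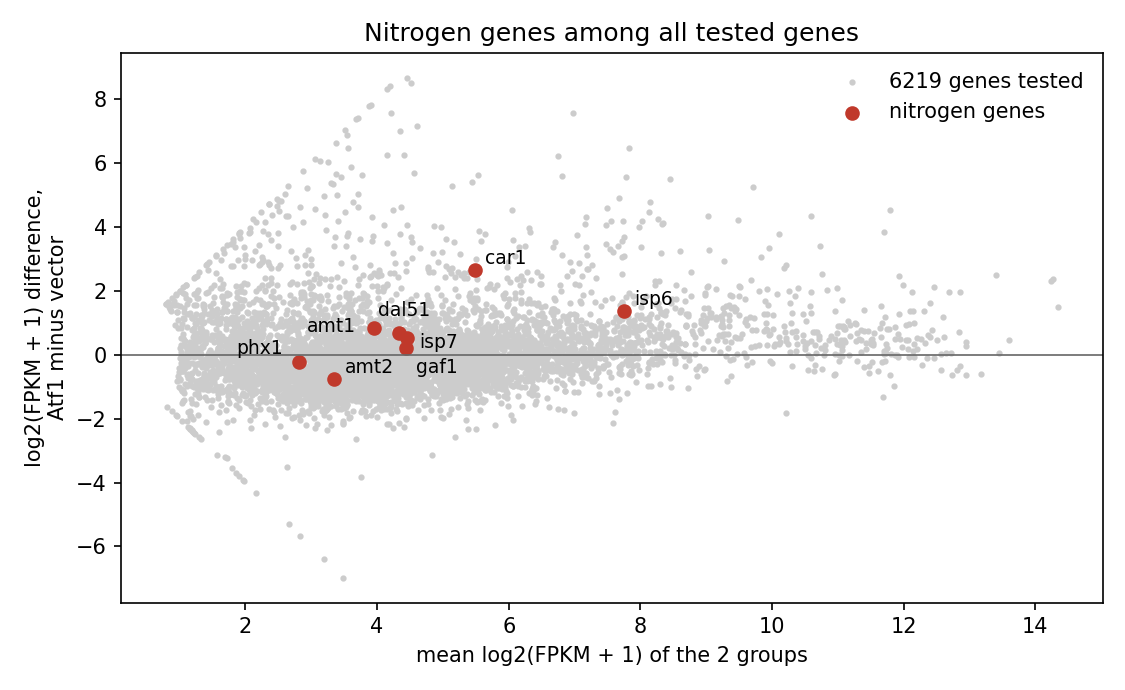
Difference in log2(FPKM + 1), Atf1 minus vector, against the mean of the 2 groups' log2(FPKM + 1), with 6219 tested genes in grey and the 8 tested nitrogen genes in red. The point of car1 is at 2.64 and that of isp6 at 1.37, and the others lie between -0.77 (amt2) and 0.84 (amt1).

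Fission yeast has another arginase gene, aru1 (SPAC3H1.07), whose coding sequence is 78.2% identical to that of car1 over 966 bases. It was the more abundant of the pair in both groups, at 840 FPKM under the Atf1 label, against 385 FPKM under the vector label, and was not called (q = 0.997 in the authors' deposited table). Its locus holds 5 genes. The share of car1 in the FPKM of the pair was 11.6% under the Atf1 label, against 4.199% under the vector label. The 2 protein-coding genes nearest to car1 in level in both groups, of 1742 that are alone in their locus, were SPBC11C11.05, at 101 FPKM (Atf1) and 16.2 FPKM (vector), and SPAC1F8.08, at 102 FPKM (Atf1) and 19.2 FPKM (vector). Likeness here is the distance between 2 pooled values per gene, 0.14 and 0.21 on the log2 scale.

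Of 80 tested genes in 8 lists of the surrounding pathways, other than the 9, the authors' deposited table calls 3 higher and 0 lower, against 1.82% and 0.129% of all tested genes. At an unadjusted p under 0.05 in that table, 14 list genes were higher and 3 lower. Among all tested genes 6.8% were higher and 4.04% lower at that p. The 3 called genes stand at different places: uric acid breakdown, urea uptake and peptide uptake. The median difference of the 80 genes was 0.17, against -0.11 over all tested genes.

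Among 7 genes for uptake and use of urea, the transporter gene dur3-1 rose and no urease gene was called. The urea transporter gene dur3-1 (SPBC23G7.13c, in the locus II 2123087-2125438 with 1 other gene) rose to 57.5 FPKM in libraries labelled Atf1, against 7.001 FPKM in vector-labelled ones, with q = 0.00809 in the authors' deposited table. The transporter gene dur3-2 was at 12.3 FPKM (Atf1) and 0.072 FPKM (vector), and dur3-3 at 5.74 FPKM (Atf1) and 0.083 FPKM (vector), without a call (q = 0.577 and q = 0.436 in that table). Both lie near a chromosome end in ASM294v3, 44.7 and 64.3 kb from it. The urease gene ure2 was at 36.1 FPKM (Atf1) and 29.1 FPKM (vector), and the accessory protein gene ure4 was at 1.67 FPKM (Atf1) and 4.13 FPKM (vector). Of the other accessory protein genes, ure6 was at 11.1 FPKM (Atf1) and 14.3 FPKM (vector) and ure7 at 118 FPKM (Atf1) and 84.1 FPKM (vector). Of these 7 urea genes 5 had a difference above 0, against 44.6% of all tested genes, and with equal FPKM totals 3 of 7, against 23.6% of all tested genes. The 3 transporter genes had the largest ratios of the 7, and no coding sequence among them matched another in the BLAST search.

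Breakdown of purines feeds the same urea pool. The urate oxidase gene SPCC1223.09 (chromosome III 1857150-1858621, alone in its locus) rose to 143 FPKM under the Atf1 label, against 26.5 FPKM under the vector label, with q = 0.00809 in the authors' deposited table. The gene of the enzyme before it in the pathway, the xanthine dioxygenase gene xan1, was at 91.4 FPKM (Atf1) and 41.3 FPKM (vector) with q = 0.508 there. Of the genes that follow it, neither was called: the probable allantoicase gene SPAC1F7.09c was at 95.9 FPKM (Atf1) and 66.0 FPKM (vector), and the ureidoglycolate lyase gene dal1 at 21.9 FPKM (Atf1) and 22.8 FPKM (vector). The purine list held 22 tested genes, of which 12 belong to the allantoate permease family, and urate oxidase was its 1 call. Its differences were above 0 in 17 of 22 genes, against 44.6% of all tested genes, and with equal FPKM totals in 7 of 22, against 23.6% of all tested genes. The list was chosen by words in the annotation, and also holds vht1, a biotin transporter gene, liz1, a pantothenate transporter gene, and thp1, a uracil DNA glycosylase gene.

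The enzymes that take arginase products further were not called. The ornithine aminotransferase gene car2 was at 623 FPKM under the Atf1 label, against 326 FPKM under the vector label (q = 0.952 in the authors' deposited table). The delta-1-pyrroline-5-carboxylate dehydrogenase gene SPBC24C6.04 was at 327 FPKM (Atf1) and 192 FPKM (vector), and the proline dehydrogenase gene SPCC70.03c at 81.1 FPKM (Atf1) and 113 FPKM (vector). Of the 4 tested genes of the arginine and proline list, which includes aru1, 3 had a difference above 0, against 44.6% of all tested genes. With equal FPKM totals 3 of 4 were above 0, against 23.6% of all tested genes. With quantile normalization 2 of 4 were, against 42.0% of all tested genes.

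**Figure D3:**
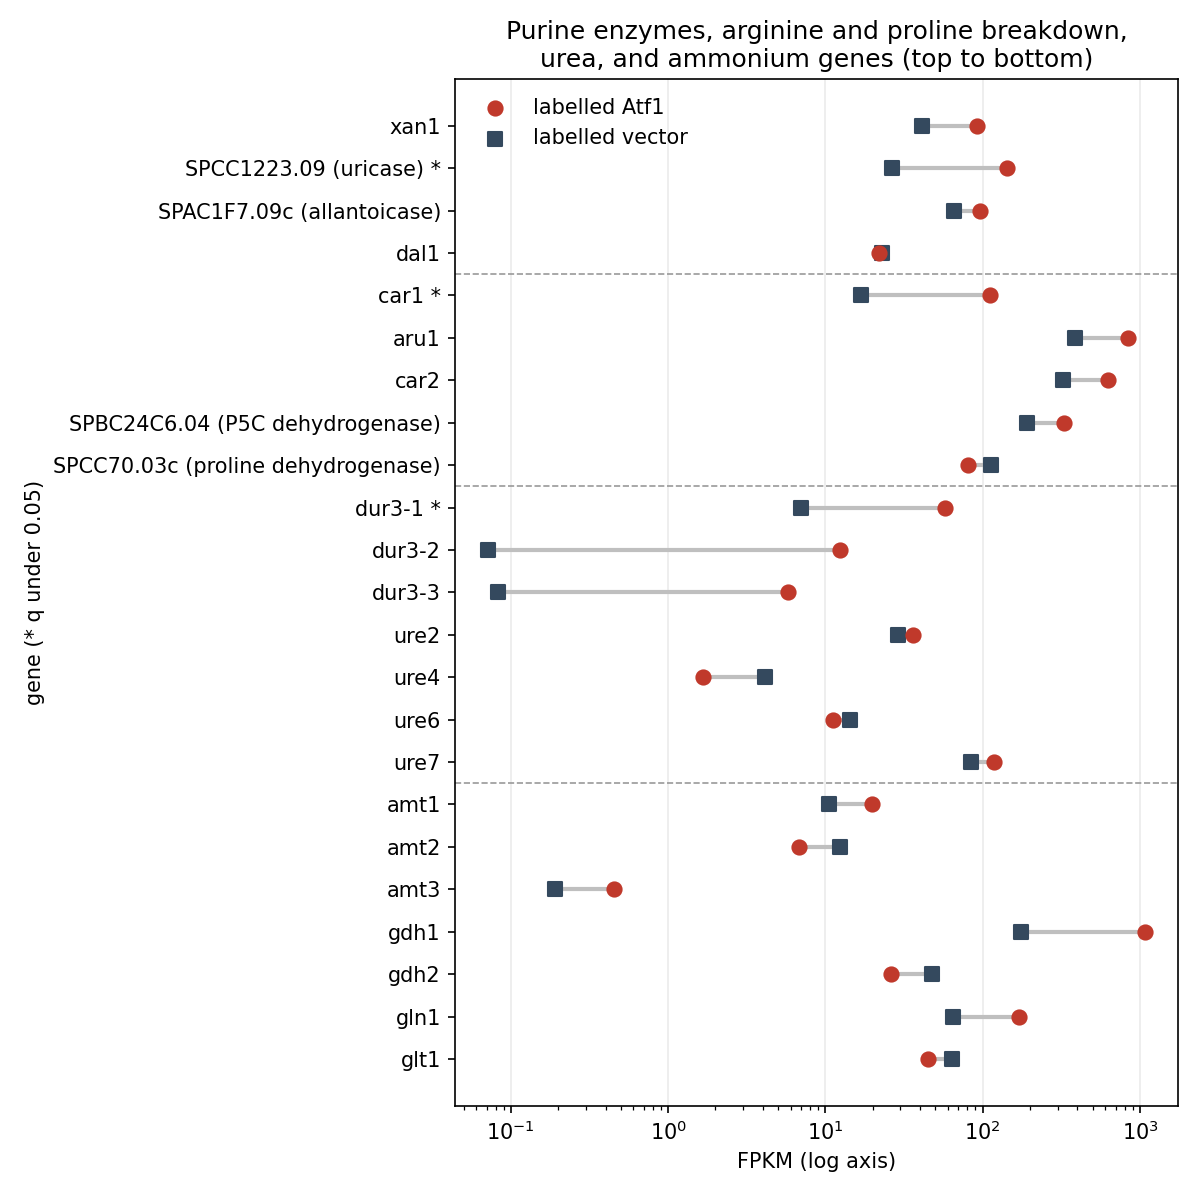
FPKM (log axis, 1 pooled value per group) of genes of purine breakdown, arginine and proline breakdown, urea transport and urease, and ammonium uptake and assimilation, from top to bottom, with red circles for the Atf1 label, dark squares for the vector label and an asterisk at q under 0.05. Each of the upper 3 blocks holds 1 called gene, and the ammonium block holds none.

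Ammonium assimilation had no call among 4 genes, and the differences were above 0 in 2 and below 0 in 2. Their median difference was 0.44, and -0.21 with equal FPKM totals, against -0.11 and -0.73 over all tested genes. At an unadjusted p under 0.05, 6.8% of all tested genes were higher and 4.04% lower. At that p, 2 of the 4 genes were higher and 0 lower in the authors' deposited table. The NADP-specific glutamate dehydrogenase gene gdh1, which makes glutamate from ammonium, was at 1072 FPKM under the Atf1 label, against 176 FPKM under the vector label, with q = 0.114 there. Its locus holds 4 genes. The glutamine synthetase gene gln1 was at 170.1 FPKM (Atf1) and 64.8 FPKM (vector), with q = 0.381. The NAD-specific glutamate dehydrogenase gene gdh2, at 26.2 FPKM (Atf1) and 47.3 FPKM (vector), and the glutamate synthase gene glt1, at 44.9 FPKM (Atf1) and 64.0 FPKM (vector), had lower values with the Atf1 label.

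Among 13 genes of the nitrogen starvation response, the peptide transporter gene isp4 (chromosome II 1550293-1553467, alone in its locus) was the 1 called, at 77.8 FPKM under the Atf1 label, against 5.83 FPKM under the vector label. The q-value is 0.00809 in the authors' deposited table. The gene ste11, which encodes the master regulator of sexual differentiation, was at 28.9 FPKM (Atf1) and 7.78 FPKM (vector) with q = 0.0608 there. Of the 13 genes 8 had a difference above 0 and 5 below, against 44.6% of all tested genes above 0. With equal FPKM totals 6 of 13 were above 0, against 23.6% of all tested genes. Vacuolar proteases beside isp6 had 0 calls among 3 genes, with 2 higher at an unadjusted p under 0.05, against 6.8% of all tested genes. The gene psp3, a subtilase gene whose coding sequence is 66.8% identical to isp6 over 627 bases, was at 447 FPKM (Atf1) and 125 FPKM (vector) (q = 0.170 in the authors' deposited table). The carboxypeptidase Y gene cpy1 was at 964 FPKM (Atf1) and 261 FPKM (vector).

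Regulators of nitrogen signalling had no calls. In the TOR list 0 of 23 genes were called by the authors' Cuffdiff comparison. At an unadjusted p under 0.05 there were 0 higher and 2 lower, against 6.8% and 4.04% of all tested genes. The lower ones were vam6, at 1.28 FPKM (Atf1) and 7.47 FPKM (vector) (q = 0.138 in the authors' deposited table), and npr2, which encodes a nitrogen permease regulator homologue, at 5.26 FPKM (Atf1) and 13.1 FPKM (vector). Of the GATA-type factors other than gaf1, 0 of 4 were called, and ams2 had the smallest p, at 5.37 FPKM (Atf1) and 19.1 FPKM (vector) (q = 0.523 there). No annotated protein name other than that of phx1 holds the word homeobox, and other annotation was not searched for it.

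**Figure D4:**
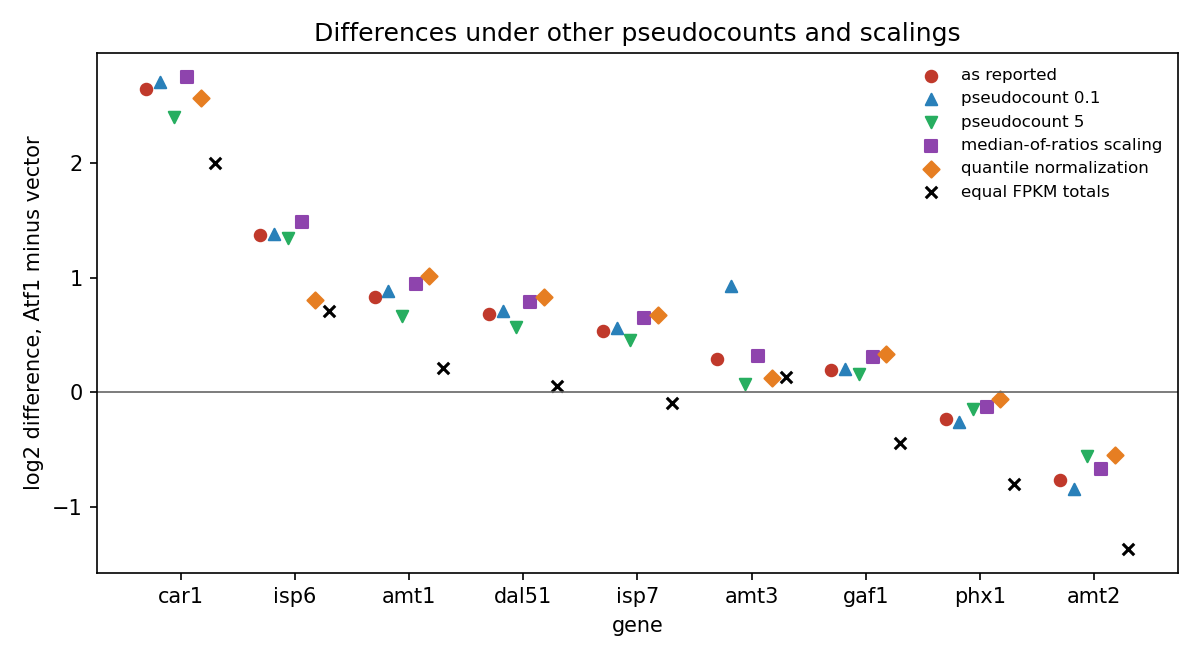
Log2 difference, Atf1 minus vector, of each of the 9 nitrogen genes (one column each) as reported, with 2 other pseudocounts and under 3 other scalings of the groups. Points of car1 stay between 2 and 2.75, those of isp7 and gaf1 cross 0 with equal FPKM totals, and the other genes keep their side.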

How the data were processed

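RNA was extracted with Trizol and libraries were made with a stranded mRNA kit, per the labels' protocols. HISAT2, Cuffdiff and the build ASM294v2 are named in the submitters' processing notes, without versions of the tools. The authors deposited FPKM, per the file headers, as 1 pooled value per group and gene, and p-values and q-values of their comparison. Both deposited tables held the same FPKM in all 7092 genes. Over how many tests the authors adjusted, and how they scaled the groups, is not stated in the sources used here.

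The genes and lists were chosen with earlier results of these data known. Log2 differences used a pseudocount of 1, and genes with status OK and a mean of at least 1 FPKM were kept. Planned fits with limma and left-out libraries could not be run on pooled values. Named were the 9 genes, and from each list the called genes or otherwise the gene with the smallest p; further genes were picked with their values in view. Coordinates of loci are those of the deposited table, which can span several genes. Promoter windows and coding sequences came from RefSeq, ASM294v3. Of 5102 protein-coding genes matched by identifier, 97.4% share the start, the end or both between that annotation and the deposited table. A shared 3′ end is enough for this, so it does not show that the 5′ ends, which set the windows, are the same. The planned comparison of Amt proteins was replaced by a BLAST+ 2.17.0 search of coding sequences. Calculations used pandas 2.3.3 and numpy 2.4.6 under Python 3.11.15, and figures used matplotlib 3.10.9. Adjustment and scaling were tested on simulated data.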

Additional observations from a re-analysis of the deposited data

How the results depend on the processing

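No paired analysis was possible because values were pooled by group before deposit, and no library could be left out either. The 1 higher and 0 lower calls among the nitrogen genes were the same at q under 0.01, with a 2-fold minimum, with Benjamini-Hochberg adjustment over the genes tested here, without the filter and with a mean of at least 10 FPKM. The 3 higher list genes were 5 with that adjustment, which added ste11 and SPBC460.05. The median difference of the nitrogen genes (0.61) was 0.72 after median-of-ratios scaling, 0.74 after quantile normalization, -0.022 with equal FPKM totals and 0.76 with a mean of at least 10 FPKM. Of 45 differences under other pseudocounts and scalings 43 kept their sign. With equal FPKM totals isp7 was at -0.095 (reported 0.54) and gaf1 at -0.44 (reported 0.19). That scaling lowers every difference by its construction; the cause of the other shifts was not tested. Since depth is unknown, little can be said of amt3, dur3-2 and dur3-3.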

Other observations

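Genes beside those that rose were looked at after their values were seen. Next to car1 on chromosome II lies fet4, a low-affinity iron and zinc transporter gene, 2193 bases away in ASM294v3 and on the same strand. It was at 50.9 FPKM in libraries labelled Atf1, against 3.41 FPKM in vector-labelled ones, with q = 0.00809 in the authors' deposited table, and its locus holds 2 genes. The other neighbours of car1 were not called: SPBC1773.17c was at 21.3 FPKM (Atf1) and 27.8 FPKM (vector) and SPBC1271.15c at 12.3 FPKM (Atf1) and 12.8 FPKM (vector). The called gene isp4 lies 430 bases from atf1 itself, which was at 54.4 FPKM (Atf1) and 60.9 FPKM (vector). None of the protein-coding genes beside isp4, dur3-1 and SPCC1223.09 was called. The amino acid permease gene beside amt1, SPCPB1C11.02, was at 9.36 FPKM under the Atf1 label, against 4.27 FPKM under the vector label, and was not called. SPBC460.05, an uncharacterized transporter gene of the purine list, had 18.9 FPKM under the Atf1 label and 1.83 FPKM under the vector label, and the authors' deposited table gives q = 0.0792.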
